A study of Mus musculus with 8 samples.

Results

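Fibroblasts of the inflamed joint were compared between arthritic mice given an antibody against human TNF and arthritic mice given no inhibitor. Cells came from the synovium of ankle and wrist joints of mice aged 8 to 10 weeks, and single-cell RNA was sequenced from viable cells sorted as lacking CD45. The arthritic mice of both groups carried the human TNF transgene hTNFtg197 (strain label B6-Tg(TNF)197Gkl) and had received Il23mc for 9 days. How Il23mc acts is not stated in the labels. The TNFi group was 3 such mice that also received the anti-human TNF antibody (Il23mc + TNFi), and the untreated group was 3 such mice without an inhibitor (Il23mc). Each of these groups filled 1 droplet library together with 1 untreated wild type (WT) mouse, and hashtag antibodies marked the mouse of each cell. The compared cells were those that the deposited annotation put into 1 of 5 fibroblast classes, named Lining, Mmp3+, Il6+, Cd200+ and Pi16+, with genotype hTNFtg197 and either treatment. They numbered 4305 in TNFi and 4743 in untreated animals, together 9048 of the 21731 fibroblasts and 24227 annotated cells of the series. Counts of unique molecular identifiers (UMIs) were summed per animal, so that the mouse, not the cell, was the replicate.

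TNF acts through the receptors TNFR1 and TNFR2 and through NF-kB, the transcription factor that drives inflammatory genes of synovial fibroblasts and also genes that shut the signal off again. Human TNF made by the transgene can act on mouse cells, and mice with this transgene develop destructive arthritis. Which of the mouse receptors the human TNF used was not tested. Interferons act through STAT proteins and interferon regulatory factors. The genes they induce include antiviral genes, guanylate-binding proteins, the chemokines Cxcl9 and Cxcl10 and the machinery of MHC class I. Whether NF-kB also drives some of these genes here was not tested. Lining fibroblasts face the joint cavity, and sublining fibroblasts lie in the connective tissue beneath.

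Because each treatment filled 1 library, treatment and library cannot be told apart from the arthritic animals alone. The WT mouse of each library, untreated in both, was therefore set beside results in the pooled fibroblasts as a check on the library. Results within single classes and the comparison with IL-17 inhibition are given without WT values, as are some pooled genes. Fibroblasts per animal numbered 842 to 1767 in TNFi and 783 to 2037 in untreated mice, with 12372684 to 34962428 and 12952645 to 33132051 UMIs. The WT mice held 541 fibroblasts in the TNFi library and 749 in the untreated library. These were of another class mix, with 42.9% and 44.2% Pi16+ cells, against means of 0.216% in TNFi and 1.20% in untreated arthritic mice. Mmp3+ cells averaged 50.4% in TNFi and 38.8% in untreated arthritic mice, but the WT mice held only 17 and 16 of them. The WT ratio of pooled fibroblasts therefore cannot check a library effect within Mmp3+ cells. Of the WT cells in the TNFi library, 23.1% had a UMI of a Y-linked gene and 65.4% had Xist and no Y-linked UMI, so that transcripts of both sexes lay under this 1 hashtag. Whether cells of TNFi mice were among them was not tested, and any such cells would enter each WT ratio and the library term. Their own hashtag had the highest raw count in 22.7% of cells, against 34.8% for the WT cells of the untreated library. After each hashtag was scaled by its median count in the library, these shares were 97.6% and 99.5%. Y-linked UMIs were found in 81.3%, 86.5% and 4.87% of cells of TNFi mice 1, 2 and 3, against 4.09%, 57.8% and 3.48% of cells of untreated mice 1, 2 and 3, and the sexes were thus not balanced. The annotated cells of the TNFi and untreated libraries shared 8 cell barcodes. The fibroblast label held, with the 7 fibroblast markers Pdgfra, Col1a1, Col1a2, Dcn, Pdpn, Fap and Thy1 summing to 18109 to 22053 CPM (counts scaled to a common library total) in TNFi and 20350 to 21292 CPM in untreated animals. The Lining label held as well, by Prg4, the lubricin gene of the joint lining. Prg4 stood at 70604 to 85595 CPM in Lining cells of TNFi mice and 47657 to 59197 CPM in Lining cells of untreated mice. In Mmp3+, Il6+ and Cd200+ cells of either group it had 13263 CPM at most. No such check is given for the other class labels. Of 12 lining genes tested in Lining cells, 0 rose and 1 fell in TNFi mice, and 1 had a positive log2 difference. Their median was -0.63, against 0.0095 over all genes tested in this class.

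No fall was detected in Mmp3, Saa3 or Il6, inflammatory products of these fibroblasts, while some other inflammatory genes fell. Mmp3, stromelysin-1, a matrix-degrading protease that names one of the classes, had 17764, 16429 and 13689 CPM in TNFi mice 1, 2 and 3, against 15211, 14830 and 15507 CPM in untreated mice 1, 2 and 3. The groups overlapped, with a log2 difference of 0.07 ± 0.19 (SE; edgeR quasi-likelihood test, adjusted p = 0.863). Saa3, an acute phase gene, differed by 0.22 ± 0.36, and Il6, the interleukin, by 0.29 ± 0.16, and neither passed. Of 19 chemokines tested 2 rose and 1 fell, and of 20 matrix degradation genes 1 rose and 1 fell. The chemokine Ccl19 and the protease gene Adamts4 were called lower, each in 1 of 6 fits that left out 1 mouse. In Mmp3+ cells 2 chemokines rose, and Ccl19, Cxcl16 and the acute phase gene Orm1 fell. In the pooled fibroblasts 797 of 14348 genes passed (5.55%), 363 of them higher (2.53%) and 434 lower (3.02%) in TNFi mice. Values of TNFi and untreated mice did not overlap in 4291 genes (29.9%). The 2 WT mice also differed: of 327 genes called higher that had at least 20 WT UMIs, 82.3% had a WT ratio above 0, and of 415 called lower 80.7% had a ratio below 0. Among the 10931 genes not called, the WT ratio had the sign of the response in 63.3%. With a library term, which rests each effect on 1 WT mouse per library, edgeR passed 0 genes, with 799 at an unadjusted p under 0.05. The count also rested on single mice, with 105, 146 and 178 genes without untreated mouse 1, 2 or 3 and 170 without TNFi mouse 2.

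**Figure D1:**
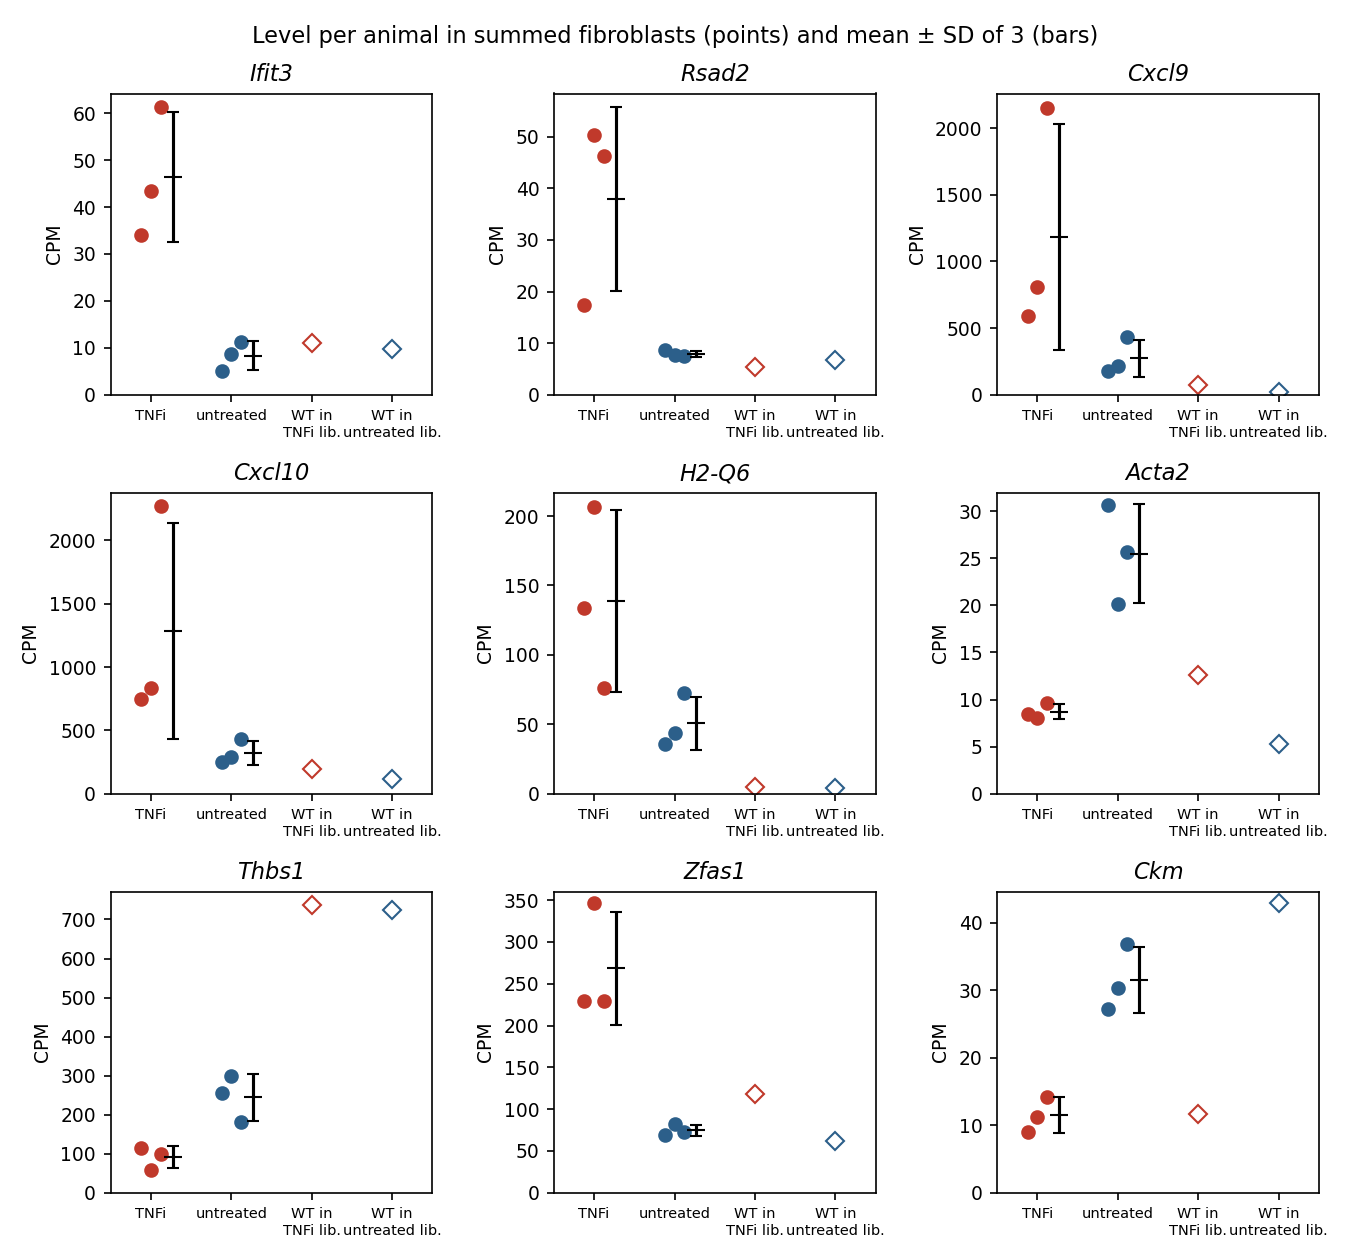
Level in CPM (y axis, linear from 0) of 9 genes in the summed fibroblasts of each TNFi mouse and each untreated mouse (filled points, with the mean and SD of 3), and in the WT mouse of the TNFi library and of the untreated library (open diamonds). Ifit3 and Rsad2 are high in TNFi mice alone, while Zfas1 and Ckm differ between the 2 WT mice in the same direction as between the arthritic groups.

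The clearest change was a rise of antiviral interferon-stimulated genes. Of 28 tested members of the interferon list, 13 rose and 0 fell, all 28 had a positive log2 difference, and their median was 1.08, against -0.0025 over all genes tested. In the 23 members with at least 20 WT UMIs, all had a higher mean in TNFi than in untreated arthritic mice, whereas the WT ratio of the libraries was above 0 in 10 of 23, with a median of -0.07. With the library term the median was 1.04.

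Ifit3, an interferon-induced RNA-binding antiviral gene (chromosome 19, 34583531 to 34588731, mm10), had 34.1, 43.4 and 61.4 CPM in TNFi mice, against 5.02, 8.72 and 11.2 CPM in untreated mice. Every TNFi mouse lay above every untreated mouse, and the rise was 2.41 ± 0.39 on the log2 scale (SE; edgeR, adjusted p = 0.00836). The WT mice had 11.1 CPM in the TNFi library and 9.68 CPM in the untreated library. Rsad2, which encodes the antiviral enzyme viperin (chromosome 12, 26442746 to 26456452), had 17.4, 50.3 and 46.2 CPM in TNFi mice, against 8.58, 7.64 and 7.54 CPM in untreated mice, with 5.29 CPM in the WT of the TNFi library and 6.69 CPM in the WT of the untreated library. The groups did not overlap, although TNFi mouse 1 was low among its group, and the rise was 2.26 ± 0.35 (edgeR, adjusted p = 0.00768). Ifit3 and Rsad2 stayed past the threshold when each of the 6 mice was left out in turn, with adjusted p-values of up to 0.0409 and 0.0396. Usp18, which removes ISG15 from proteins and dampens interferon signalling, rose by 1.28 ± 0.26, and Irf7, an interferon regulatory factor, by 1.18 ± 0.29. Ifit3 and its neighbour Ifit3b are near-identical copies, as are Tgtp1 and Tgtp2 and several H2 genes, so that reads may be split between them.

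Short stretches of 4 promoters are shown because these genes rose together and carry the motif that interferon regulatory factors and the ISGF3 complex are known to bind. The sequences are from RefSeq on GRCm38.p6, 5' to 3' on the strand of the gene, and capitals mark the motif searched, GAAA and GAAA with any 2 bases between them, or its reverse complement. They lie at chr19:34583348-34583441 (plus strand) for Ifit3, chr19:34640760-34640838 (plus) for Ifit1, chr12:26456538-26456597 (minus) for Rsad2 and chr5:92349068-92349127 (minus) for Cxcl10.
Ifit3: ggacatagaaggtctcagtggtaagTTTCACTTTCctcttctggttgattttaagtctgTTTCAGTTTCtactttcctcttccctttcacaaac
Ifit1: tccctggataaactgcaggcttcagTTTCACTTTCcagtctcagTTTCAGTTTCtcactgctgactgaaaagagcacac
Rsad2: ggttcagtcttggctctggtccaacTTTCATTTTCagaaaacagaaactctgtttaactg
Cxcl10: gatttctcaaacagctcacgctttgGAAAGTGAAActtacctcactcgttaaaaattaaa
Ifit3 and Ifit1 held 2 matches each, and Rsad2 and Cxcl10 1 each. Over windows of 250 bases before to 50 bases after the start, searched on both strands, the motif was found in 13 of the 21 interferon list members with a promoter in the RefSeq table (61.9%) and in 11 of 18 members of the interferon-gamma list (61.1%). It was found in 1079 of all 27025 promoters (3.99%), in 33 of 294 genes that were higher in TNFi mice (11.2%) and in 14 of 311 that were lower (4.5%). A match describes the letters of the window and does not show binding.

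Genes known for their response to interferon-gamma also rose, but here the WT mice differed as well. Of 23 tested members of that list 7 rose and 0 fell, with a median log2 difference of 1.09, and the WT ratio had a median of 0.43 and was above 0 in 12 of 16 members with enough WT UMIs. Cxcl10, a chemokine that attracts T cells through CXCR3, had 746, 836 and 2271 CPM in TNFi mice, against 250, 292 and 432 CPM in untreated mice. The groups did not overlap, TNFi mouse 3 stood far above the other TNFi mice, and the rise was 1.98 ± 0.41 (edgeR, adjusted p = 0.023). Cxcl9, a second ligand of the same receptor, had 591, 810 and 2152 CPM in TNFi mice, against 178, 214 and 434 CPM in untreated mice. Its rise was 2.10 ± 0.55, but the WT mice had 75.8 CPM in the TNFi library and 18.0 CPM in the untreated library, a log2 ratio of 2.01, and the library term left 0.03 ± 1.09. Cd274, the gene of the T cell inhibitory ligand PD-L1, rose by 1.88 ± 0.43 with a WT ratio of 1.01. Mouse 3 was the highest TNFi animal for Cxcl9, Cxcl10, Cd274 and Tgtp2, and leaving out single mice took the adjusted p of Cxcl9 to 0.161 and that of Cxcl10 to 0.0986 at most.

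Of the 14 genes of MHC class I presentation, 8 rose and 0 fell, with a median of 0.76. B2m, the light chain of every class I molecule, had 3298, 3671 and 3984 CPM in TNFi mice, against 1754, 2037 and 2616 CPM in untreated mice. The groups were separate and the rise was 0.77 ± 0.15 (edgeR, adjusted p = 0.0181), with 750 CPM in the WT of the TNFi library and 595 CPM in the WT of the untreated library. H2-T23, which encodes the class Ib molecule Qa-1, rose by 1.09 ± 0.21, and Tap1, a subunit of the peptide transporter, by 0.91 ± 0.23. H2-Q6, a class Ib gene, had 134, 207 and 76.1 CPM in TNFi mice, against 36.1, 43.7 and 72.6 CPM in untreated mice, so that the lowest TNFi mouse lay just above the highest untreated one (1.45 ± 0.32, adjusted p = 0.0272). The WT ratio of these 14 genes had a median of 0.29, and the library term left a median of 0.38.

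The NF-kB pathway and its feedback showed no call in either direction. Of 28 tested members 0 passed in the pooled fibroblasts (edgeR, 10 at an unadjusted p under 0.05), and their median log2 difference was 0.10. Tnfaip3, which encodes the feedback inhibitor A20, had 399, 291 and 414 CPM in TNFi mice, against 276, 267 and 270 CPM in untreated mice, a difference of 0.44 ± 0.13 that missed the threshold (adjusted p = 0.059). Nfkbia, which encodes the inhibitor IkBa, differed by 0.24 ± 0.09 (adjusted p = 0.112), and Relb, an NF-kB subunit and target, by -0.03 ± 0.09. Of 12 receptors for TNF, IL-17 and interferon-gamma, Tnfrsf1b, the gene of TNFR2, rose by 0.53 ± 0.11, with 49.1, 44.3 and 53.5 CPM in TNFi mice, against 38.3, 30.6 and 33.0 CPM in untreated mice. Ifngr1, a chain of the interferon-gamma receptor, fell by 0.35, and Tnfrsf1a, the gene of TNFR1, differed by 0.04 ± 0.09. The 16 acute phase genes had a median of 0.46 with 0 passed (edgeR, 6 at an unadjusted p under 0.05), where the WT ratio of the same genes had a median of 0.72.

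Part of the contractile genes fell. Of 22 contractile genes 8 fell and 0 rose, with a median of -0.16, against a WT median of -0.02. Acta2, smooth muscle actin (chromosome 19, 34241090 to 34255590), had 8.46, 8.06 and 9.61 CPM in TNFi mice, against 30.6, 20.2 and 25.7 CPM in untreated mice. The groups were far apart, with a fall of 1.55 ± 0.20 (edgeR, adjusted p = 0.00444), and the WT mice went the other way, with 12.6 CPM in the TNFi library and 5.26 CPM in the untreated library. The library term therefore gave a larger fall, -2.81 ± 0.38 (edgeR, unadjusted p = 2.1e-05). This did not pass after adjustment, as 0 of 14348 genes passed with that term, which rests on 1 WT mouse per library. Tagln, an actin-binding protein of contractile cells, fell by 1.33 ± 0.31, Ltbp2, a microfibril protein, by 0.94 ± 0.18 and Postn, the matricellular protein periostin, by 0.83 ± 0.19. Thbs1, a matricellular glycoprotein that can activate TGF-beta, had 115, 59.6 and 99.7 CPM in TNFi mice, against 255, 300 and 181 CPM in untreated mice, a fall of 1.42 ± 0.24 (adjusted p = 0.00924), and the WT mice had 738 CPM in the TNFi library and 725 CPM in the untreated library. Of 10 Notch genes 2 fell, the receptor Notch3 by 1.20 ± 0.19 and its target Heyl by 1.95 ± 0.41, and 8 did not pass. The median of the 10 was -0.09, against -0.07 for the WT ratio. The 8 mural marker genes, which include contractile genes of pericytes and smooth muscle, summed to 46.5 to 54.7 CPM in TNFi mice and 63.7 to 66.8 CPM in untreated mice. The part of such cells in the fall of Acta2 was not tested. The 6 mural markers tested in Mmp3+ cells had a median of -0.40, with 1 fallen. In that class Acta2 had 9.91, 9.53 and 13.1 CPM in TNFi mice, against 52.7, 33.3 and 36.9 CPM in untreated mice.

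Further changes touched lipid, hypoxia and sublining genes. Of 13 lipid-handling genes 5 fell. Lpl, lipoprotein lipase, had 61.3, 47.7 and 44.3 CPM in TNFi mice, against 149, 220 and 113 CPM in untreated mice (-1.65 ± 0.27, edgeR, adjusted p = 0.00919), and Abca9, a transporter gene, fell by 1.80 ± 0.26 (adjusted p = 0.00681). The WT ratios of Lpl and Abca9 were 0.15 and -0.32. Of 25 genes of glycolysis and the hypoxia response 7 rose, with a median of 0.46, against 0.15 for the WT ratio. Car9, a carbonic anhydrase that HIF induces, had 9.57, 6.28 and 8.36 CPM in TNFi mice, against 1.05, 0.835 and 1.41 CPM in untreated mice, the largest rise of the list (2.86 ± 0.34, adjusted p = 0.003), although the library term turned its sign, to -3.99. The glucose transporter gene Slc2a1 rose by 0.64 ± 0.15. Of 16 sublining genes 4 fell, among them Clec3b, which encodes tetranectin, with 118, 94.4 and 97.8 CPM in TNFi mice, against 209, 185 and 187 CPM in untreated mice (-0.91 ± 0.11, adjusted p = 0.00324). Ptn, the growth factor pleiotrophin, had 39.6, 32.0 and 24.5 CPM in TNFi mice, against 106, 61.7 and 104 CPM in untreated mice (-1.48 ± 0.21, adjusted p = 0.00681), and Itih5, a gene of a hyaluronan-binding serum protein family, fell by 1.40 ± 0.27. Mt3, a metal-binding metallothionein, had 53.3, 165 and 87.0 CPM in TNFi mice, against 13.1, 34.4 and 19.5 CPM in untreated mice (2.16 ± 0.50, adjusted p = 0.0305), with a WT ratio of 2.19 that was as large. Spp1, which encodes osteopontin, had 712, 1072 and 865 CPM in TNFi mice, against 344, 292 and 266 CPM in untreated mice, and kept its call when each of the 6 mice was left out (1.56 ± 0.18, adjusted p = 0.003).

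The response was then taken class by class, since summed fibroblasts mix the change within a class with a change in class shares. Of the 5 classes, Il6+ and Pi16+ fibroblasts had a lower and Lining, Mmp3+ and Cd200+ a higher mean share in TNFi mice, and no difference passed. Il6+ cells were 29.3%, 23.8% and 38.0% of fibroblasts in TNFi mice, against 50.6%, 50.5% and 42.5% in untreated mice. The groups did not overlap, and the difference was -17.5 percentage points (two-sided exact permutation test, p = 0.1, the smallest that 3 mice against 3 can give, and 0.167 after adjustment over 5 classes). Mmp3+ cells were 55.1%, 55.8% and 40.1% in TNFi mice, against 37.3%, 36.1% and 43.0% in untreated mice, and these overlapped (exact p = 0.2). Cd200+ cells were 8.31%, 7.41% and 14.8% in TNFi mice, against 4.60%, 5.89% and 7.59% in untreated mice, and overlapped as well. Lining cells were 6.90%, 13.0% and 6.77% in TNFi mice, against 6.13%, 6.63% and 5.67% in untreated mice. Pi16+ cells averaged 0.216% in TNFi and 1.20% in untreated mice, with 6, 1 and 2 cells in TNFi mice, against 11, 19 and 24 cells in untreated mice, and their response was not tested. Lining and Pi16+ shares did not overlap either, each with the same exact p = 0.1 as Il6+ shares. The mean difference for Lining cells was 0.692 points without TNFi mouse 2, against 2.73 points with it, and for Cd200+ cells 1.84 points without TNFi mouse 3, against 4.16 points with it. The WT mice of the TNFi and the untreated library had 37.0% and 38.3% Il6+, 3.14% and 2.14% Mmp3+ and 42.9% and 44.2% Pi16+ cells. Fewer cells of a type and less recovery of that type cannot be told apart in these shares.

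The number of genes that passed differed by class. In Mmp3+ cells 587 of 13959 genes passed (4.21%), in Lining cells 134 of 10103 (1.33%), in Cd200+ cells 99 of 9264 (1.07%) and in Il6+ cells 29 of 11439 (0.254%). Higher in TNFi mice were 2.17% of genes in Mmp3+, 0.871% in Lining, 0.615% in Cd200+ and 0.166% in Il6+ cells, and lower were 2.03%, 0.455%, 0.453% and 0.0874% in the same order. Depth differed between classes too, with 292 to 986 cells and 6111240 to 22419015 UMIs per animal in Mmp3+, 320 to 1028 cells and 3846390 to 11010445 UMIs in Il6+, 48 to 229 cells and 1046723 to 5283104 UMIs in Lining and 36 to 146 cells and 370400 to 1757351 UMIs in Cd200+. These counts rested on single mice. Without untreated mouse 1, 2 or 3, 62, 108 and 120 genes passed in Mmp3+ cells, 20, 60 and 35 in Lining, 29, 31 and 24 in Cd200+ and 0, 0 and 1 in Il6+ cells. Without TNFi mouse 2 the counts were 184 in Mmp3+, 38 in Lining and 0 in Il6+ cells, without TNFi mouse 3 they were 239 in Lining and 37 in Cd200+ cells, and without TNFi mouse 1 Lining cells had 86. Thinned to 1 common depth, the classes gave 42 genes in Mmp3+, 34 in Lining, 51 in Cd200+ and 7 in Il6+. The order of the classes by calls depended on depth and on the method: Il6+ cells had the fewest calls at either depth, but with DESeq2 they had 263, against 205 in Lining and 170 in Cd200+ cells, and with no filter 592, against 535 and 482.

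**Figure D2:**
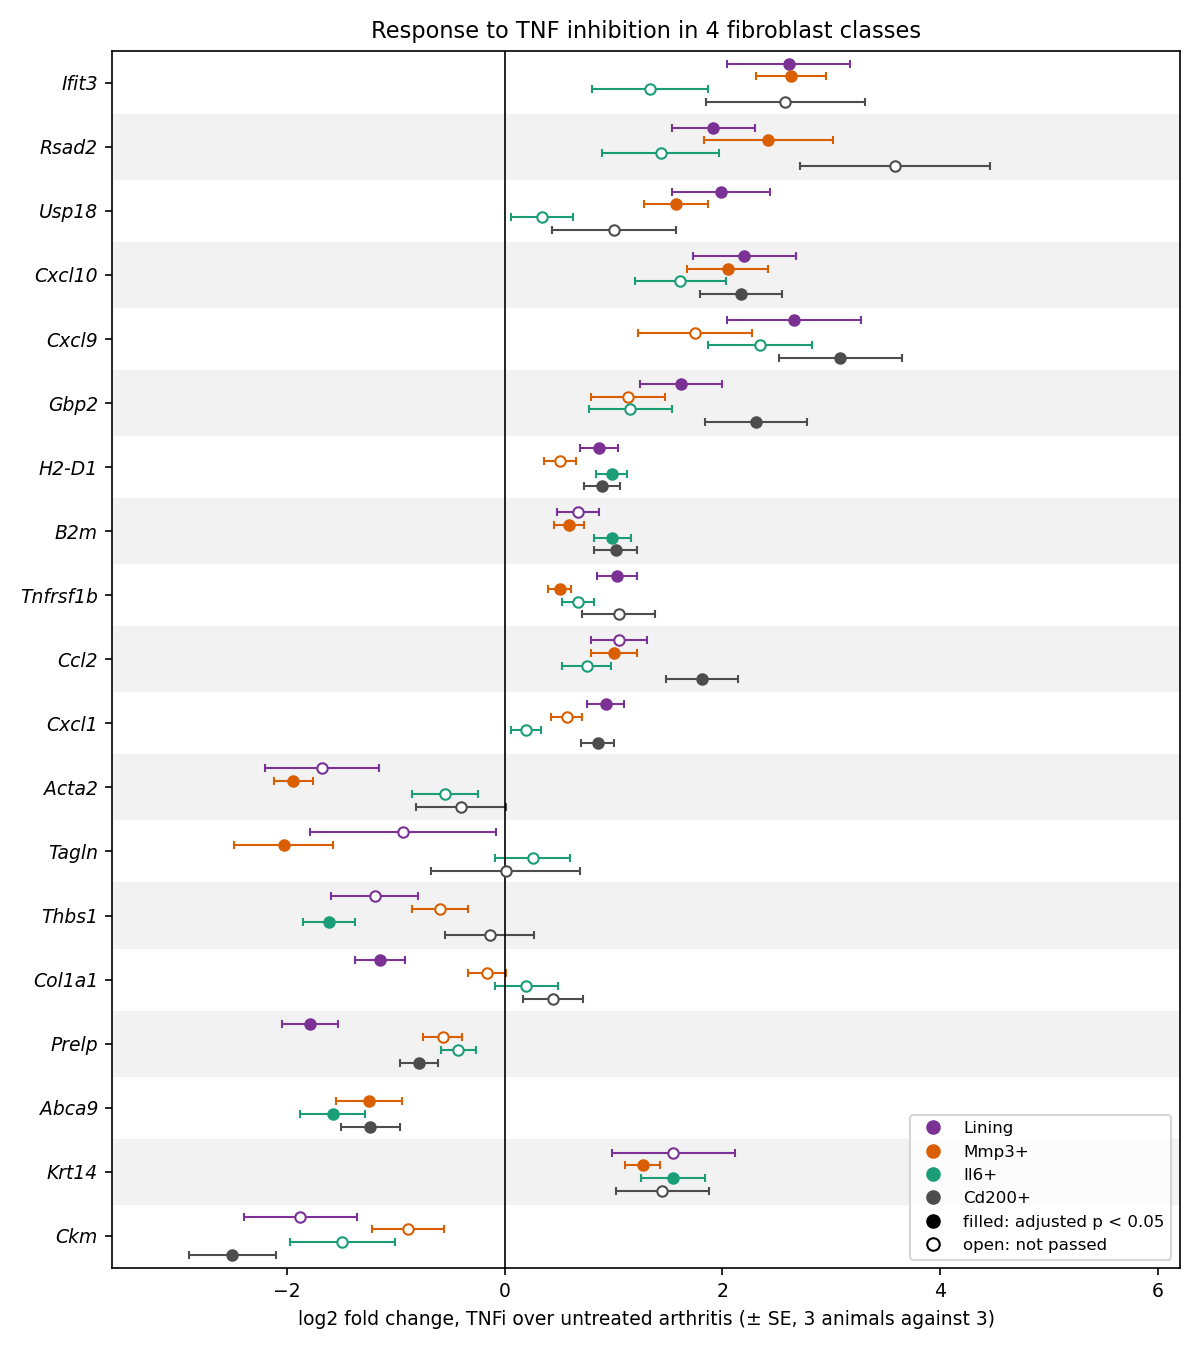
Log2 fold change of TNFi over untreated mice with its SE (x axis) for selected genes (rows) in the Lining, Mmp3+, Il6+ and Cd200+ classes (colours), from edgeR fits of each class, where filled points passed an adjusted p of 0.05 and open points did not. Interferon-related genes lie right of 0 in all 4 classes, whereas the falls of Acta2 and Tagln lie furthest left in Mmp3+ cells and that of Col1a1 in Lining cells.

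In Lining fibroblasts the interferon-gamma list led, with 8 of 20 genes risen and a median of 1.70, and some matrix genes fell. Cxcl9 had 746, 772 and 1516 CPM in Lining cells of TNFi mice, against 20.3, 245 and 198 CPM in those of untreated mice (2.66 ± 0.61, edgeR, adjusted p = 0.0447). Of 14 class I genes 7 rose, among them H2-Q6 with 428, 553 and 207 CPM in TNFi mice, against 74.6, 86.8 and 143 CPM in untreated mice (1.97 ± 0.28, adjusted p = 0.00407). Of 27 tested genes of the NF-kB list 4 rose in this class and 0 fell. Tnfaip2 rose by 1.14 ± 0.26, the neutrophil attractant Cxcl1 by 0.93 ± 0.17 and Tnfaip3 by 0.81 ± 0.18. Zc3h12a, an RNase that limits cytokine transcripts, rose by 0.71 ± 0.16. Tnfrsf1b rose by 1.03 ± 0.18. These calls in Lining cells rested on single mice: when each mouse was left out in turn, Cxcl9 and Tnfaip3 passed in 0 of 6 fits, with adjusted p-values of up to 0.112 and 0.135, Zc3h12a in 1, Tnfaip2 and Cxcl1 in 3 each and H2-Q6 in 6. Among 34 collagen and matrix genes tested 6 fell and 0 rose, and 10 had a positive difference. Col1a1, a chain of type I collagen, had 659, 379 and 429 CPM in TNFi mice, against 1283, 886 and 1086 CPM in untreated mice (-1.15 ± 0.23, adjusted p = 0.0239). Col1a2, the other chain, fell by 1.25 ± 0.23. The small leucine-rich proteoglycans Fmod and Prelp fell by 2.44 ± 0.46 and 1.79 ± 0.26, and Timp2, a metalloproteinase inhibitor, by 0.72 ± 0.13.

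In Mmp3+ fibroblasts 11 of 27 interferon list genes rose, with a median of 1.38, and 6 of 22 contractile genes fell. Ifit3 had 33.0, 50.8 and 23.9 CPM in Mmp3+ cells of TNFi mice, against 5.62, 4.69 and 7.29 CPM in those of untreated mice (2.63 ± 0.32, edgeR, adjusted p = 0.00468). Acta2 fell by 1.94 ± 0.18 and Tagln by 2.03 ± 0.45 in this class, and Ltbp2 by 1.18 ± 0.10. When each of the 6 mice was left out in turn, Acta2 and Ltbp2 passed in 6 of 6 fits. Tagln passed in 0 of 6, with edgeR adjusted p-values of up to 0.114. Ltbp2 had 52.3, 53.7 and 46.6 CPM in TNFi mice, against 112, 117 and 118 CPM in untreated mice, a narrow spread in both groups. Of 28 tested genes of the NF-kB list 3 rose and 1 fell. The chemokine Ccl2 rose by 1.00 ± 0.21, Tnfaip2 by 0.93 ± 0.21 and Nfkbia by 0.40 ± 0.09, and the adaptor Traf1 fell by 0.68 ± 0.12. Ccl2, Tnfaip2 and Traf1 passed in 3 of 6 fits that left out 1 mouse, and Nfkbia in 2. Plac8 had 88.1, 137 and 197 CPM in TNFi mice, against 16.0, 27.6 and 32.5 CPM in untreated mice (2.41 ± 0.33, adjusted p = 0.00733). Ifitm1, a membrane protein gene of the interferon-induced family, went the other way from the interferon list, with 25.4, 25.9 and 36.0 CPM in TNFi mice, against 97.6, 81.3 and 66.8 CPM in untreated mice (-1.52 ± 0.25, adjusted p = 0.0136).

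In Cd200+ fibroblasts, the class with the fewest UMIs among those tested, some interferon-gamma genes and inflammatory products rose. The interferon-gamma list had 8 of 23 genes risen and a median of 1.98. Gbp2, a guanylate-binding protein of cell-autonomous defence, had 850, 696 and 2764 CPM in Cd200+ cells of TNFi mice, against 97.5, 289 and 448 CPM in those of untreated mice (2.31 ± 0.47, edgeR, adjusted p = 0.0258). TNFi mouse 3 stood far above the others, and without it the difference of Gbp2 was 1.41 and did not pass. Gbp2 and Gbp3 passed in 3 of 6 fits that left out 1 mouse, and Il6 in 2. Of 27 tested genes of the NF-kB list 6 rose and 0 fell. The chemokines Cxcl2, Ccl2 and Cxcl1 rose by 1.94 ± 0.38, 1.81 ± 0.33 and 0.85 ± 0.15. The cytokines Lif and Il6 rose by 1.46 ± 0.31 and 1.04 ± 0.21, and the superoxide dismutase gene Sod2 by 0.74 ± 0.15. Il6 had 3727, 2147 and 3194 CPM in Cd200+ cells of TNFi mice, against 1186, 1778 and 1427 CPM in those of untreated mice, beside 3104, 2463 and 3412 CPM in Il6+ cells of TNFi mice. Mmp13, a collagenase, had 5419, 6770 and 8704 CPM in TNFi mice, against 1419, 2430 and 2162 CPM in untreated mice (1.79 ± 0.33, adjusted p = 0.0159). Cd200 itself, the ligand that names the class, had 195, 207 and 443 CPM in TNFi mice, against 83.9, 252 and 195 CPM in untreated mice, and did not pass (0.60 ± 0.33, adjusted p = 0.435). Il33, an alarmin cytokine, fell by 2.48 ± 0.42. By the naming rule the 5 lowest genes of this class were Mb, Myl1, Ckm, Il33 and Eno3. Of 7 muscle markers tested in Cd200+ cells 5 fell, with a median of -2.04. The part of muscle transcripts in the falls of this class was not tested.

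In Il6+ fibroblasts 0 of 23 interferon list genes and 0 of 23 interferon-gamma genes passed (edgeR, 7 and 17 at an unadjusted p under 0.05). Their medians were 0.47 and 1.04, and 5 of 14 class I genes rose. H2-D1, a classical class I heavy chain, had 1523, 1532 and 1748 CPM in Il6+ cells of TNFi mice, against 657, 886 and 881 CPM in those of untreated mice (0.99 ± 0.14, adjusted p = 0.0243), and B2m, H2-K1, H2-Q7 and H2-T23 rose by 0.99 to 1.55. Thbs1 fell in this class by 1.61 ± 0.24, with 249, 122 and 135 CPM in TNFi mice, against 516, 640 and 391 CPM in untreated mice. Nrp1, a semaphorin and VEGF co-receptor, fell by 1.02 ± 0.20, and Esr1, the estrogen receptor gene, by 0.98 ± 0.17. Il6 itself differed by 0.21 ± 0.17 in Il6+ cells and did not pass. Of the 16 genes named by rule or list and called in Il6+ cells, 0 kept the call through every exclusion of 1 mouse. The same tally was 10 of 54 in Lining, 10 of 59 in Mmp3+, 6 of 45 in Cd200+ and 14 of 93 in pooled fibroblasts.

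**Figure D3:**
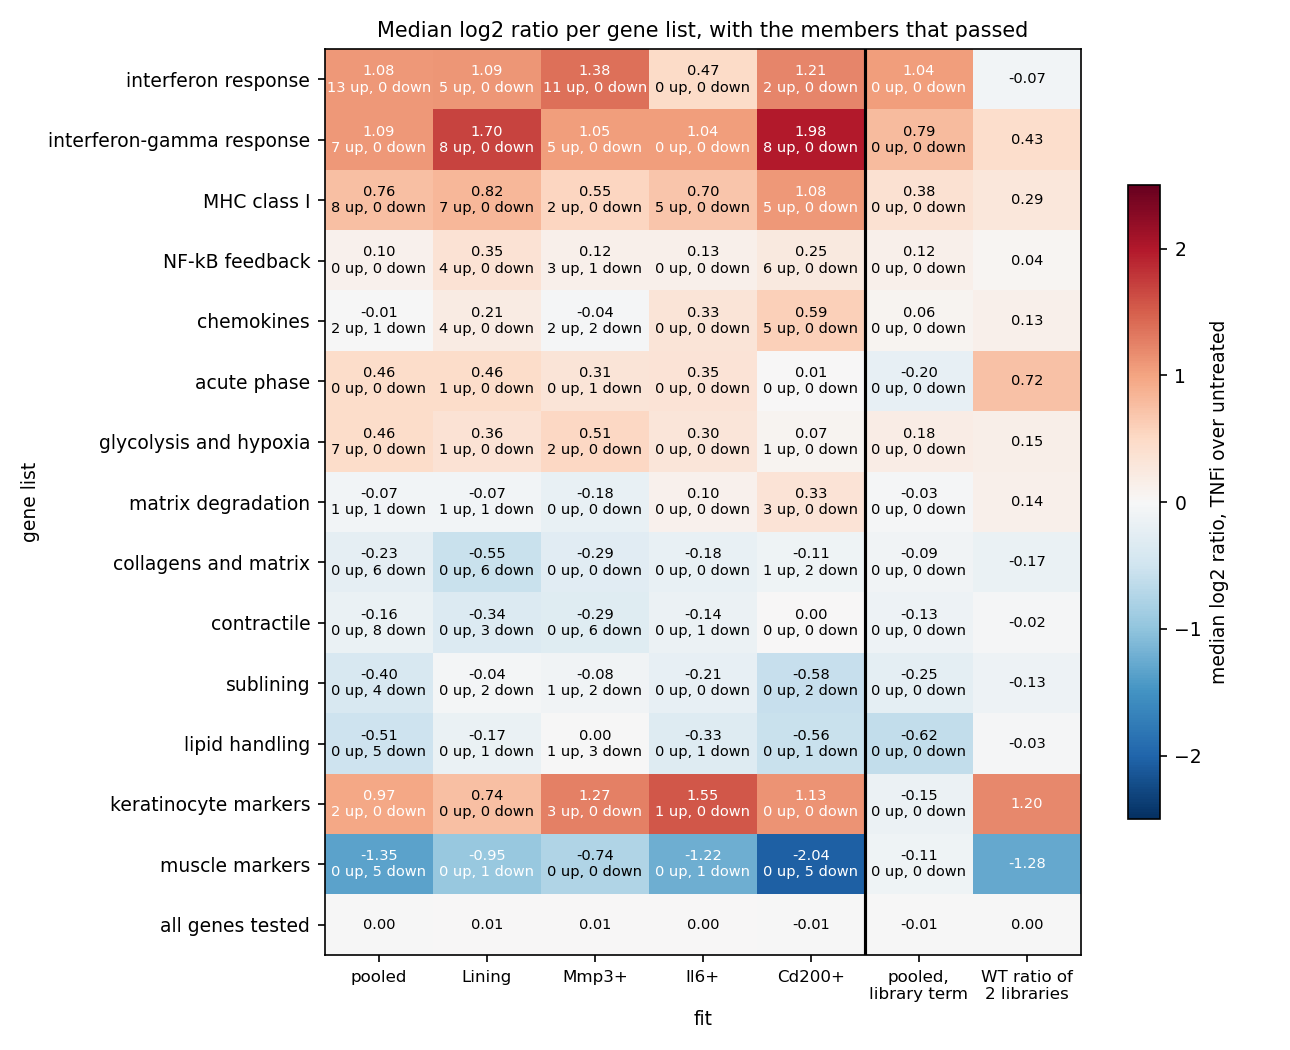
Median log2 ratio of TNFi over untreated mice (colour and upper number of each cell) and the number of genes that passed in each direction (lower text) for 14 gene lists and all genes (rows), in pooled fibroblasts, in 4 classes, in the pooled fit with a library term and as the ratio of the WT mouse of the TNFi library to that of the untreated library (columns). The interferon row is positive everywhere except in the WT column (-0.07), while the keratinocyte (0.97 pooled, 1.20 WT) and muscle rows (-1.35 pooled, -1.28 WT) have the same sign and size in the WT column.

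Whether the response differed between classes was tested directly, in 1 model of 6 mice and 4 classes with the mouse as a block. Of 11993 genes 38 passed the F test of the class by treatment terms (0.317%). This count was 11 without TNFi mouse 2 or untreated mouse 3, 13 without untreated mouse 1 and 269 without TNFi mouse 3. For Ifit3, Rsad2, Cxcl9 and Cxcl10 this test gave adjusted p-values of 0.622, 0.709, 0.454 and 0.756, so a difference between classes in their response was not shown. The most genes per pair were found between Lining and Cd200+ cells, 38 genes (0.317%), followed by Mmp3+ against Cd200+ with 15 (0.125%), Lining against Il6+ with 9 (0.075%), Il6+ against Cd200+ with 6 (0.05%), Mmp3+ against Il6+ with 4 (0.0334%) and Lining against Mmp3+ with 3 (0.025%).

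Bglap2, an osteocalcin gene that shares reads with near-identical copies, had the lowest p. In Lining cells it had 5.28, 5.58 and 7.63 CPM in TNFi mice, against 15.5, 38.2 and 43.4 CPM in untreated mice, a fall of 2.56 ± 0.33, and in Cd200+ cells it differed by 0.33 ± 0.29 (F test, edgeR, adjusted p = 0.000183). Of 6 cartilage and bone markers tested in Lining cells 1 fell and 1 had a positive difference, with a median of -1.23. The part of bone cells in the fall of Bglap2 was not tested. Zfas1 and Snhg12 are non-coding transcripts that carry small nucleolar RNAs in their introns, and Zfas1 is antisense to Znfx1. Zfas1 rose by 1.93 ± 0.16 in Lining and 2.12 ± 0.27 in Mmp3+ cells, against differences of 0.90 ± 0.21 in Il6+ and 0.93 ± 0.22 in Cd200+ cells that did not pass. Snhg12 rose by 1.67 ± 0.24 in Lining and 1.65 ± 0.21 in Mmp3+ cells, and had 0.26 ± 0.17 in Il6+ and 0.34 ± 0.16 in Cd200+ cells. Both had a WT ratio above 0 as well, 0.93 for Zfas1 and 0.47 for Snhg12. Cd34, a sialomucin of sublining and progenitor cells, fell in Lining cells (34.7, 19.3 and 34.9 CPM in TNFi mice, against 64.9, 54.5 and 58.7 CPM in untreated mice) and in Cd200+ cells by 1.69 ± 0.29, with differences of -0.04 ± 0.21 in Mmp3+ and 0.10 ± 0.13 in Il6+ cells.

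A group of genes was set apart by Cd200+ cells. Ifi203, an interferon-inducible gene, had 287, 201 and 436 CPM in Cd200+ cells of TNFi mice, against 18.9, 44.0 and 56.7 CPM in those of untreated mice, a rise of 2.78 ± 0.32, and 0.04 ± 0.23 in Il6+ cells. The Il6+ response minus the Cd200+ response was -2.79 ± 0.36 (edgeR, adjusted p = 0.0025 over all pairs). Timp1, which inhibits metalloproteinases, had 4021, 4022 and 5214 CPM in Cd200+ cells of TNFi mice, against 1413, 2196 and 1778 CPM in those of untreated mice. In Lining cells it had 1722, 824 and 1586 CPM in TNFi mice, against 2430, 1740 and 2366 CPM in untreated mice. The direction was thus opposite, although the difference within Lining cells did not pass. The Lining response of Timp1 minus its Cd200+ response was -2.01 ± 0.28 (edgeR, adjusted p = 0.0038). Col12a1, a fibril-associated collagen chain, rose by 0.89 ± 0.14 and Bmp2, a bone morphogenetic protein gene, by 1.25 ± 0.19 in Cd200+ cells, against -0.26 ± 0.10 and -0.01 ± 0.19 in Mmp3+ cells. Ptx3, a soluble pattern recognition protein of innate immunity, rose by 1.91 ± 0.18 in Cd200+ cells, with 2662, 1967 and 2136 CPM in TNFi mice, against 533, 698 and 559 CPM in untreated mice. In Il6+ cells it differed by 0.12 ± 0.17. Spp1 rose in Mmp3+ cells by 1.51 ± 0.25 and differed by 0.04 ± 0.15 in Il6+ cells (F test, adjusted p = 0.0397).

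**Figure D4:**
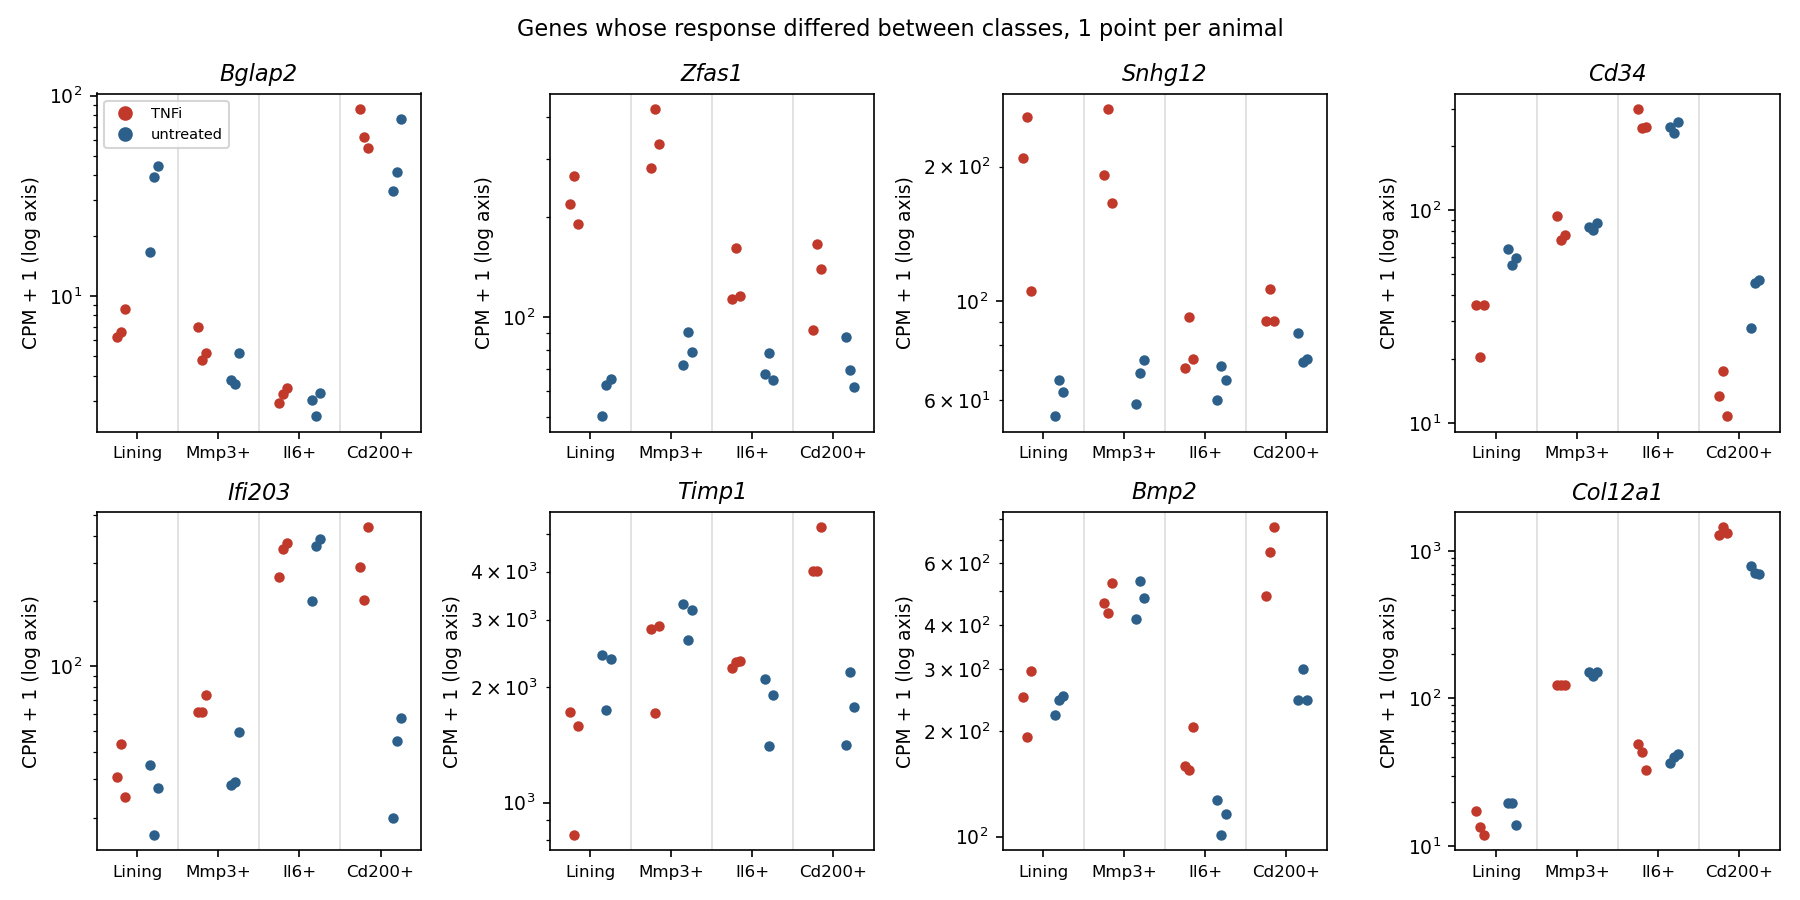
Level in CPM + 1 (y axis, logarithmic) of 8 genes whose response differed between classes by the F test, with 1 point per mouse, TNFi left of untreated in each of the Lining, Mmp3+, Il6+ and Cd200+ classes (x axis). Ifi203, Timp1, Bmp2 and Col12a1 separate TNFi from untreated mice upwards in Cd200+ cells, and Bglap2 separates them downwards in Lining cells.

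Transcripts of other cell types differed between the libraries, in the WT mice as well for muscle, keratinocyte and erythroid genes, and their part in the fibroblast results was not tested. The 9 muscle markers summed to 90.4 to 127 CPM in TNFi mice and 223 to 298 CPM in untreated mice, and to 131 CPM in the WT of the TNFi library and 316 CPM in the WT of the untreated library. All 9 were tested and 5 fell, such as the muscle creatine kinase Ckm, with 9.05, 11.3 and 14.2 CPM in TNFi mice, against 27.2, 30.4 and 36.8 CPM in untreated mice, and 11.7 CPM in the WT of the TNFi library, against 42.9 CPM in the WT of the untreated library. The 8 keratinocyte markers summed to 54.0 to 74.8 CPM in TNFi mice and 32.7 to 35.7 CPM in untreated mice, with 340 CPM in the WT of the TNFi library and 128 CPM in the WT of the untreated library. Of these, Krt14 and Krt1 rose, by 1.29 ± 0.32 and 2.20 ± 0.55. Of 5 erythroid markers 2 were tested and Hba-a1, a haemoglobin chain, fell by 4.41 ± 0.71, with a summed level of 0.0693 to 0.185 CPM in TNFi mice and 2.02 to 2.63 CPM in untreated mice, and of 0.165 CPM in the WT mouse of the TNFi library and 2.39 CPM in that of the untreated library. The 10 leukocyte markers, with 15.5 to 33.8 CPM in TNFi mice and 18.5 to 27.4 CPM in untreated mice, overlapped, while Cd68, a macrophage gene among them, rose by 0.89 ± 0.24. Of the markers in these lists only Cd3e, a T cell receptor complex gene, had 0 UMIs in the 6 mice. The neutrophil markers summed to 35.2 to 39.2 CPM in TNFi mice and 45.7 to 58.1 CPM in untreated mice, and Camp, a neutrophil granule gene, fell by 0.64 ± 0.15. The mean mitochondrial share was 1.97% to 2.22% in TNFi mice and 2.38% to 2.41% in untreated mice, and the deposited stress score was 0.794 to 0.904 in TNFi mice and 0.712 to 0.866 in untreated mice.

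**Figure D5:**
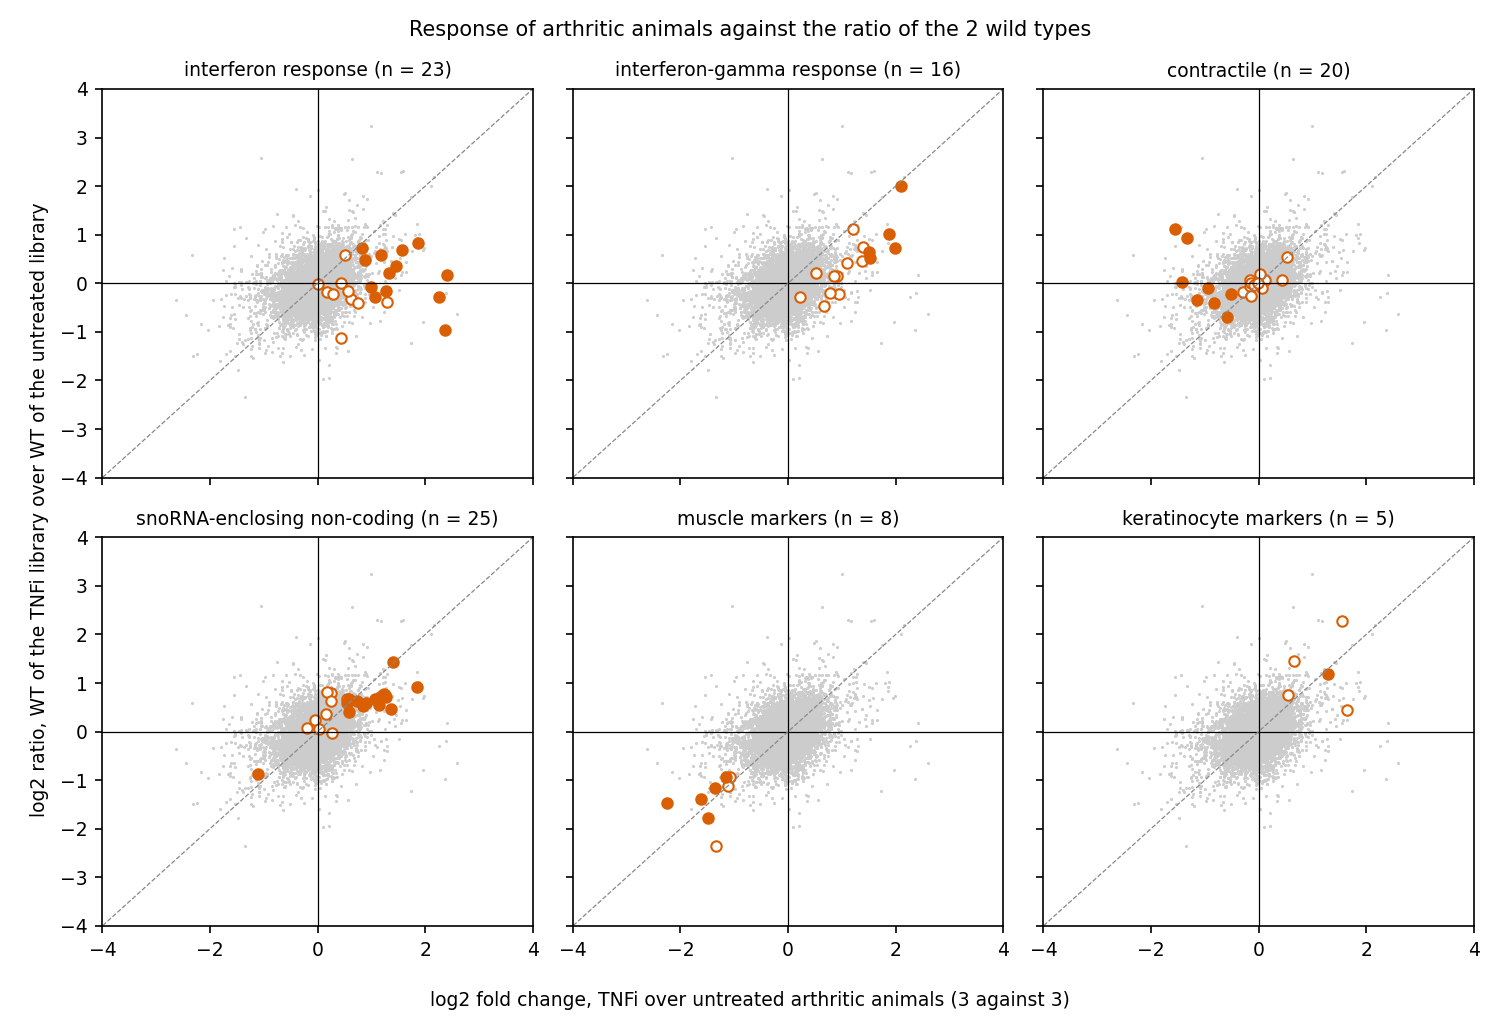
Log2 fold change of TNFi over untreated arthritic mice (x axis) against the log2 ratio of the WT mouse of the TNFi library over that of the untreated library (y axis) for genes with at least 20 WT UMIs (grey), with 6 gene sets in orange (filled where the response passed). Interferon genes lie right of 0 with WT ratios on both sides of 0, whereas the medians of muscle and keratinocyte genes lie near the diagonal, most snoRNA-enclosing non-coding genes have a WT ratio above 0 (23 of 25) and several of those called lie below the diagonal, and 2 genes fall outside the axes.

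Arthritic mice of the same genotype and Il23mc treatment that received an antibody against mouse IL-17A filled a library of their own, and were set against TNFi mice to test where the inhibitors differed. Between TNFi and IL-17-inhibited mice 1090 of 14348 genes passed (7.6%), 438 of them higher (3.05%) and 652 lower (4.54%) in TNFi mice. Both comparisons share the TNFi mice, and library and treatment cannot be told apart here either. Ifit3 was higher in TNFi mice than in IL-17-inhibited mice by 1.49 ± 0.37 (edgeR, adjusted p = 0.028), with 46.3 ± 13.9 CPM in TNFi and 16.2 ± 8.46 CPM in IL-17-inhibited mice (SD, n = 3 each), and Rsad2 by 1.80 ± 0.34. Cxcl9 had 1185 ± 845 CPM in TNFi and 1245 ± 504 CPM in IL-17-inhibited mice (SD, n = 3 each), a difference of -0.07 ± 0.53 that did not pass, and H2-K1 was lower in TNFi mice by 0.52 ± 0.14. Acta2 had 8.71 ± 0.803 CPM in TNFi and 44.0 ± 4.41 CPM in IL-17-inhibited mice, a difference of -2.35 ± 0.20 (adjusted p = 0.0002). Mmp3 was higher in TNFi than in IL-17-inhibited mice by 1.14 ± 0.19, with 15961 ± 2077 CPM in TNFi and 7251 ± 2180 CPM in IL-17-inhibited mice, and Lcn2, an iron-binding acute phase protein gene, by 2.39 ± 0.28.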

How the data were processed

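The values were UMI counts per gene and cell barcode, deposited by the authors as filtered matrices of 32285 genes. They were made with Cell Ranger, version 6.0.0 per the file headers and 6.0.6 per the submitters' processing notes, which name the build mm10. Class, genotype, treatment and hashtag of each cell came from the deposited annotation, as did the mitochondrial fraction and a stress score, also made by the authors. Its gene set, the filter on cells, the treatment of doublets and the calling of hashtags are not named in the labels or headers. The library sorted for FAP and 8 text columns of the annotation were not used.

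Raw counts of the fibroblast classes were summed per mouse. The test was edgeR 4.0.16 (R 4.3.3) with TMM scaling, filterByExpr, quasi-likelihood fits of 12 mice from 3 unsorted libraries with the group as the only term, and Benjamini-Hochberg adjustment over all genes tested at a threshold of 0.05. The SE was derived from the F statistic. Each class was fitted likewise where all 6 arthritic mice had at least 20 cells of it. A mouse with fewer cells of the class was left out of that fit. The Mmp3+ fit thus lacked the WT mice of the TNFi and untreated libraries, with 17 and 16 such cells. Class by treatment terms were tested in 6 mice and 4 classes with the mouse as a block. CPM are counts scaled to the effective library total of each sum, and the ratio of the WT mice used CPM + 1 where at least 20 UMIs were present, without a test. Shares of classes were compared with exact two-sided permutation tests (scipy 1.17.1, python 3.11.15). The fits were tested on simulated data. The p-values measure the spread between these mice, with 1 library per treatment.

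Named genes were the 10 highest and 10 lowest log2 differences among genes past the threshold with a mean of at least 10 CPM and no overlap of the groups, the 5 highest and 5 lowest per class, the 12 lowest p-values of the class by treatment test and the 3 lowest per pair of classes, the called genes whose values moved the most and the least with a library term, the genes that name the classes, and list members. Genes for sex-linked transcripts were left out of the ranked parts. Members and lists were chosen with earlier results of these data known. Alternatives were DESeq2 1.42.0, limma 3.58.1 with voom for the class by treatment test, RLE scaling, no filter, a library term, a sex term, thinned counts, a higher cell minimum, the replicate number as a block and the exclusion of each mouse. In pooled fibroblasts a further alternative gave the 4 tested classes equal weight (limma, without WT mice).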

Additional observations from a re-analysis of the deposited data

Results flagged for a closer look

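Responses that differed between the Lining, Mmp3+, Il6+ and Cd200+ classes were tested by the class by treatment terms (edgeR, F test), and 38 genes passed. The 12 genes of lowest p had these adjusted p-values: 0.000183 for Bglap2, 0.000994 for Snhg12, Zfas1 and Cd34, 0.0028 for Ifi203, Col12a1 and Bmp2, 0.00292 for Timp1, 0.00453 for Ctsc, 0.00871 for Mat2a, 0.00978 for Cirbp and 0.0103 for Slfn8. The last 4 are not described above. Ctsc, the protease cathepsin C, had log2 differences of 0.95 in Lining, -0.63 in Mmp3+, 0.19 in Il6+ and 0.03 in Cd200+ cells. Mat2a, which makes S-adenosylmethionine, had -0.20, 0.00, 0.16 and 0.78 in the same order of classes. Cirbp, a cold-inducible RNA-binding protein gene, had 0.85, 0.54, 0.31 and -0.24, and Slfn8, a Schlafen family gene, had 0.75, 0.97, -0.19 and 2.23. Of the 12 genes, Bglap2, Cd34, Snhg12 and Zfas1 passed when each of the 6 mice was left out in turn. Groups of 3 mice are too small for a test of single outlying mice.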

How the results depend on the processing

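Genes passing in pooled fibroblasts numbered 797, against 1405 with DESeq2, 0 with a library term and 105 to 781 when each mouse was left out. Thinned counts gave 631 and equal class weights 1047. The IL-17 comparison gave 473 to 1092. Lining cells (134) gave 205 with DESeq2, 535 without a filter, 70 in 6 animals only, 0 with the library term, 6 with at least 50 cells, 34 thinned and 20 to 239 without single mice. Mmp3+ cells (587) gave 910 without a filter, 42 thinned and 62 to 569 without single mice, and a library term could not be fitted. Il6+ cells (29) gave 263 with DESeq2, 592 without a filter, 1 with the library term, 7 thinned and 0 to 39 without single mice. Cd200+ cells (99) gave 170 with DESeq2, 482 without a filter, 27 in 6 animals only, 0 with the library term, 156 with a sex term, 35 with at least 50 cells, 51 thinned and 24 to 120 without single mice. The class by treatment test (38) gave 725 without a filter, 25 with at least 50 cells, which left Mmp3+ and Il6+, and 11 to 269 without single mice. The sex term, the fit without WT mice and the thinning outside pooled fibroblasts were chosen after seeing the data.

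The replicate numbers were not shown to pair mice: same-numbered mice correlated at 0.103, 0.156 and 0.0677, each highest for its own number, a hint from the data and not the design. The replicate block gave 756 genes pooled, 139 in Lining, 790 in Mmp3+, 67 in Il6+ and 99 in Cd200+ cells. Without the mouse as a block the class by treatment test gave 4.

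With the library term 10 of 93 named calls in pooled fibroblasts turned sign: Mt3 (-0.70), Ckm (0.39), Gmpr (4.84), Car9 (-3.99), Calm4 (-0.0059), Adamts4 (0.17), Tpm2 (0.12), Il4i1 (0.18), Krt14 (-0.047) and Myh4 (0.18). So did Rsad2 (-2.62), H2-T23 (-0.12) and C2 (-0.74) in Lining and Mb (3.25) in Cd200+ cells. Thinning turned Traf1 (0.55) and Krt10 (-0.20) in Mmp3+ cells. The causes were not tested.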

Other observations

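Non-coding genes that enclose a small nucleolar RNA, such as Zfas1 and the Snhg genes, were higher in TNFi mice as a group. This set was made after values were seen, from the mouse gene annotation. Of 33 tested in pooled fibroblasts 15 rose and 1 fell, with a median log2 difference of 0.54, against -0.0025 over all genes tested. The counts were 13 risen of 22 in Lining, 15 risen and 1 fallen of 30 in Mmp3+, 3 risen of 26 in Il6+ and 5 risen of 23 in Cd200+ cells. The WT ratio of the libraries was above 0 in 23 of 25 of these genes, with a median of 0.62, and the library term left a median of -0.04. Protein-coding genes that enclose a small nucleolar RNA had 4 risen and 7 fallen of 219, and other non-coding genes had 24 risen and 18 fallen of 1128. Treatment and library cannot be told apart for this set from the arthritic mice alone.

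The median number of UMIs of a fibroblast's own hashtag was 684, 1329 and 787.5 in TNFi mice 1, 2 and 3, against 400, 693 and 647 in untreated mice 1, 2 and 3. It was 96 in the WT mouse of the TNFi library and 49 in that of the untreated library. The hashtag antibodies target CD45 and B2m, per the design text. The B2m transcript stood at 3298 to 3984 CPM in TNFi mice and 1754 to 2616 CPM in untreated mice, and at 750 CPM in the WT mouse of the TNFi library and 595 CPM in that of the untreated library.

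The CArG box, known for serum response factor and searched by letters that read alike on both strands, was found in 3 of the 19 promoters of contractile genes (15.8%) and in 1.81% of all promoters of the same length. A match describes letters and shows no binding.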
